A study of Drosophila melanogaster with 12 samples.

Results

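The cytochrome P450 genes of *Drosophila melanogaster* were followed in wing tissue from the last larval stage to 44 h after puparium formation. Members were taken by name, as every gene in the count tables whose symbol begins with Cyp and a digit, plus *shd*, whose product is a P450 with a symbol of its own. The rule found 83 of the 15240 genes. *Cyp1* was set apart because it encodes a cyclophilin, a protein-folding enzyme that shares only the letters of the name, which left 82 P450 genes. Of these, 33 had more than 10 counts in at least 1 library and are described below, 43 reached between 1 and 10 counts at most, and 6 had no count in any library.

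P450s are heme enzymes that insert an oxygen atom into a small, usually greasy substrate, and they draw electrons from a reductase in the endoplasmic reticulum or from a ferredoxin in mitochondria. In insects they make and break down the moulting hormone ecdysone, process the lipids and phenolics of the cuticle, and detoxify plant compounds and insecticides. Pulses of 20-hydroxyecdysone, the active hormone, time metamorphosis. The *shd* product makes it from ecdysone in peripheral tissues, and the *Cyp18a1* product inactivates it by oxidation.

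RNA sequencing was done on wings at 6 stages, with 2 replicate libraries at each: wandering larvae of the last instar (L3, 0 h in the sample titles) and pupae at 6, 18, 24, 36 and 44 h after puparium formation (APF). All animals carried the same genotype, w1118/y,w, hs-FLP; + ; +, with no treatment or transgene that differed between stages, and 40 wings were dissected per stage. The stages span the last cell cycles, cell cycle exit and cuticle formation, and the question was which genes change from each stage to the next. The study's methods describe the replicates as independent, without saying whether wings were dissected separately for each, so p-values measure the spread between these libraries.

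Between 1659208 and 6900002 reads fell on genes in each library. Levels are given as CPM, counts scaled to the size of the library and by the trimmed mean of M values (TMM), and on this scale the 3 counts taken as the detection floor corresponded to 0.363 to 1.53 CPM. The 7 wing epithelium markers summed to between 1096 and 2955 CPM in every library, salivary gland glue genes to at most 3.78 CPM with *Sgs1* at 0, and the 6 gut and Malpighian tubule markers to at most 2.04 CPM up to 24 h, 10.9 to 13.0 at 36 h and 14.8 to 16.4 at 44 h, with *Uro*, *alphaTry* and *betaTry* at 0 throughout. The replicates at 6 h APF were the least alike: 14 of 31 P450 genes tested differed at least 2-fold between them, against 0 at L3 and at most 6 at any other stage. Over all 8469 genes tested, 1257 differed by as much at 6 h, and 254 to 674 did at each other stage. In whole tissue, fewer cells of a type and less RNA per cell cannot be told apart.

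The P450 genes differed in their stage of peak. The mean level peaked at 6 h APF for 7 of the 33 genes, at 36 h for 14 and at 44 h for 8, while 3 peaked at 24 h (*Cyp6d4*, *shd* and *Cyp4d2*), 1 at L3 (*Cyp6v1*) and 0 at 18 h. Among the 8469 genes tested, the shares that peaked at L3, 6, 18, 24, 36 and 44 h APF were 22%, 15.5%, 14.2%, 9.94%, 16.7% and 21.6%. Of the 31 P450 genes tested, 1, 7, 0, 2, 14 and 7 peaked at those stages. The thresholds on counts and CPM keep a weakly expressed gene only if it is high at some stage, so these shares describe the detected genes and not the whole family. The same limit holds for the shares called and the medians given below for each interval. The plot of each gene as a percentage of its own peak orders the genes in this way.

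**Figure D1:**
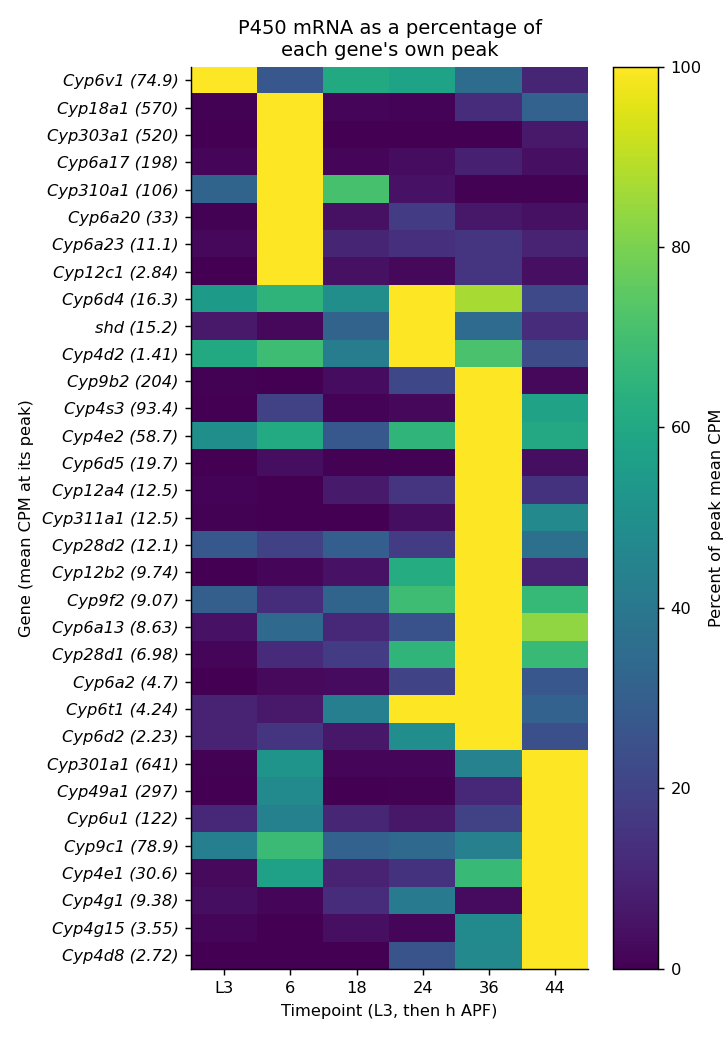
Mean CPM of the 33 P450 genes at 6 stages (columns, L3 and then h APF), each row coloured from 0 to 100% of that gene's own peak, with the peak mean in CPM in brackets after the symbol (n = 2 libraries per stage). The block at 6 h holds 7 genes, the block at 36 h holds 14 and the block at 44 h holds 8, and several of the last were also bright at 6 h.

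In 24 of the 33 genes both libraries of the peak stage lay above the other 10, as they did in 23 of the 31 tested P450 genes and in 54.2% of all tested genes. Both libraries stood clear for all 7 genes that peaked at 6 h, for 9 of the 14 at 36 h and for 6 of the 8 at 44 h. The stage of peak was the same under every scaling and with each library left out for 27 genes. It moved for *Cyp6t1*, *Cyp6d4*, *Cyp4d2*, *Cyp6a13*, *Cyp6d2* and *Cyp4g1*. Over all 6 stages together, 29 of the 31 tested P450 genes varied (edgeR quasi-likelihood test, adjusted p under 0.05), against 83.5% of all genes tested, and *Cyp6d2* and *Cyp6d4* did not pass.

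*shd* (FBgn0003388, chromosome arm 3L), which encodes the ecdysone 20-monooxygenase of mitochondria, was low in these wings. Its levels in replicates 1 and 2 were 1.45 and 0.63 CPM (L3), 0.688 and 0 (6 h), 5.49 and 4.20 (18 h), 11.1 and 19.4 (24 h), 7.36 and 3.33 (36 h), and 1.66 and 2.23 (44 h APF). Both 24 h libraries, with 86 and 38 counts, were above the other 10, and both 6 h libraries, with 3 and 0 counts, were at the floor. From 6 to 18 h *shd* rose, with an adjusted p of 0.00391 and a ratio of pooled levels of 12.4 (95% exact interval 4.02 to 61.7, counting error only). The further difference from 18 to 24 h did not pass (log2 fold change 1.57, SE 0.50, adjusted p = 0.0643), although it did in 4 of 19 alternative analyses (adjusted p from 0.00448 to 0.258 over the 19). From 24 to 36 h *shd* fell by 1.46 on the log2 scale (SE 0.52, adjusted p = 0.0458), a call that was lost in 11 of 19 alternative analyses, where adjusted p ranged from 0.00585 to 0.242. It was lost, among others, without 24 h replicate 2 (adjusted p = 0.241) and without 36 h replicate 2 (adjusted p = 0.242). The changes from L3 to 6 h and from 36 to 44 h had adjusted p-values of 0.233 and 0.0965, and the second passed in 2 of the 19 alternatives (without a filter and with library size alone).

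*Cyp18a1* (FBgn0010383, chromosome X), the cytochrome that inactivates 20-hydroxyecdysone, gave one of the clearest time courses of the family. Its levels were 3.03 and 2.52 CPM (L3), 621 and 519 (6 h), 10.1 and 8.12 (18 h), 5.67 and 5.10 (24 h), 51.8 and 91.0 (36 h), and 186 and 172 (44 h APF). The 6 h libraries stood above all others, the 44 h libraries came next, and no library of L3, 18 or 24 h exceeded 10.1 CPM. *Cyp18a1* rose 198-fold from L3 to 6 h (log2 fold change 7.63, SE 0.35, adjusted p = 3.58e-08) and fell by 5.95 on the log2 scale by 18 h (SE 0.31, adjusted p = 1.01e-07). It rose again 13.0-fold from 24 to 36 h (SE 0.31 on the log2 scale, adjusted p = 4.81e-06). The last step, from 36 to 44 h, was 2.50-fold (log2 fold change 1.32, SE 0.25, adjusted p = 0.00219). Without 36 h replicate 1, the lower of the pair, that step was 0.98 on the log2 scale and under the 2-fold threshold, as it was with library size alone as the scaling (0.99).

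The 2 enzymes of hormone activation and inactivation therefore had their highest means at different stages, *shd* at 24 h and *Cyp18a1* at 6 h. The lowest mean of *shd* was also at 6 h, where both its libraries were at the floor. That level was not separated from L3 (edgeR quasi-likelihood test, adjusted p = 0.233). Per kilobase of exon, *shd* had 0.114 CPM at 6 h against 187 for *Cyp18a1*, and 5.05 CPM at 24 h against 1.77. Neither gene overlaps another in the annotation. The plot of both genes by library shows the separation and the spread of the replicates.

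**Figure D2:**
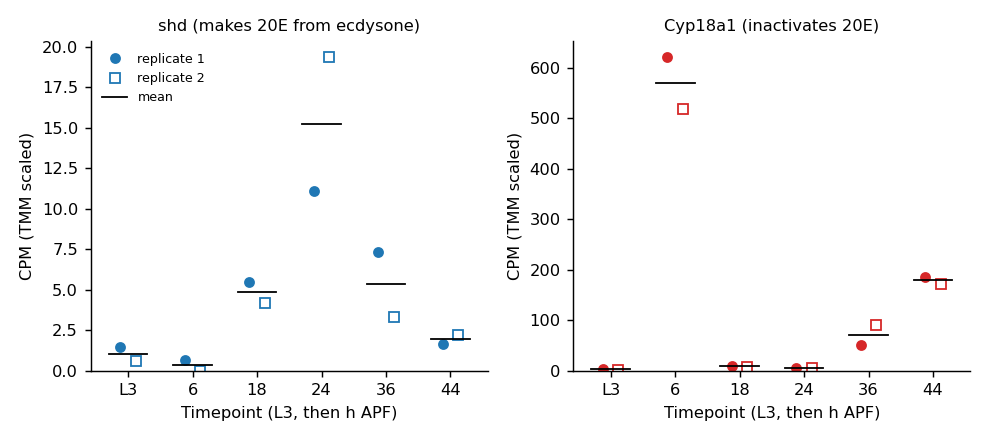
CPM of *shd* (left) and *Cyp18a1* (right) at L3 and at 5 times in h APF, with filled circles for replicate 1, open squares for replicate 2 and a line for the mean. *shd* was highest at 24 h (11.1 and 19.4 CPM) and *Cyp18a1* at 6 h (621 and 519 CPM), and the vertical scales differ.

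The enzymes that make ecdysone itself, most of them also P450s with names of their own, were close to the floor. The 7 genes of that list summed to at most 14.0 CPM in any library, and 3 of them passed the filter for testing. *dib*, the C22-hydroxylase, had 1.21 and 1.26 CPM at L3, 8.02 and 7.14 at 6 h, and 0.914 and 0.84 at 18 h. It rose from L3 to 6 h (log2 fold change 2.60, adjusted p = 0.0177) and fell by 3.06 on the log2 scale from 6 to 18 h (adjusted p = 0.00961). *phm*, the C25-hydroxylase, was higher at 18 h (4.31 and 3.64 CPM) than at 6 h (1.60 and 0.34), with a log2 fold change of 1.90 and an adjusted p of 0.0386. *phm* then fell by 2.68 on the log2 scale from 24 to 36 h (adjusted p = 0.0256). The third gene, *sad*, passed in no interval, and *nvd*, *sro*, *spo* and *spok* never exceeded 2.30 CPM. *wit* is annotated on the opposite strand of *dib* and *CG6962* on that of *sad*, so reads of these pairs may have been shared.

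Hormone transport moved in part with *Cyp18a1*. *E23*, an ABC transporter that exports ecdysone, had 8.48 and 9.45 CPM (L3), 208 and 85.0 (6 h), 9.01 and 5.32 (18 h), 9.79 and 7.14 (24 h), 93.0 and 104 (36 h), and 60.7 and 52.8 (44 h). It was high at 6 h and again from 36 h, with log2 fold changes of 4.05 from L3 to 6 h and 3.47 from 24 to 36 h (adjusted p = 1.11e-05 and 5.72e-05). *Oatp74D*, the ecdysone importer, had 63.5 and 71.5 CPM at L3 and 133 and 23.8 at 6 h, so the 6 h replicates lay on both sides of L3. It dropped at 36 h (3.24 and 6.38 CPM, from 76.1 and 51.0 at 24 h) and stood at 169.9 and 170.2 CPM at 44 h. The ecdysone oxidase gene *Eo* had a count in only 1 library. All 14 receptor and response genes were tested, and from L3 onward 4, 4, 2, 3 and 4 of them rose and 4, 6, 1, 2 and 5 fell in the successive intervals. *ftz-f1*, a nuclear receptor known to be expressed after a hormone pulse has passed, peaked with *Cyp18a1* at 6 h (1603 and 1229.6 CPM) and was between 6.12 and 56.8 CPM in all other libraries. *Hr46*, a nuclear receptor induced by the hormone, peaked at 36 h with 944 and 923 CPM.

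From L3 to 6 h APF, 14 of the 31 tested P450 genes passed the test, against 32.8% of all genes, where passing means an adjusted p under 0.05 together with a 2-fold or larger difference. They were 13 that rose (18.1% of all genes did) and 1 that fell, *Cyp6v1* (14.7% did). The median log2 fold change was 1.96 over the P450 genes and 0.01 over all genes, and 0.58 over the P450 genes when the 8 with no count at one of the stages were set to their lower bound. From 6 to 18 h, 18 passed (32% of all genes), with 5 higher (14.3%) and 13 lower (17.8%), and the medians were -1.11 and 0.00. The replicates of the 2 stages did not overlap for 19 P450 genes from L3 to 6 h (71.8% of all genes), 23 from 6 to 18 h (68.9%), 24 from 18 to 24 h (55.9%), 25 from 24 to 36 h (68.2%) and 26 from 36 to 44 h (69.9%). A rise to 6 h and a fall after it made up most of the P450 calls in the first 2 intervals, as the plot of genes past the test shows.

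**Figure D3:**
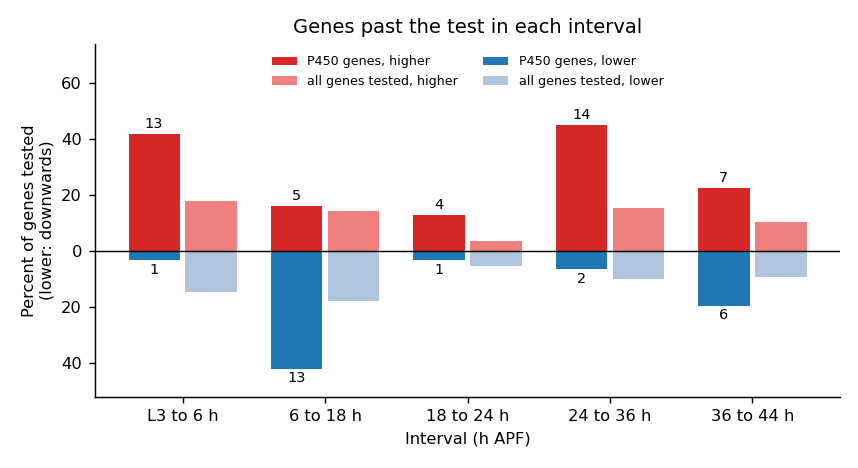
Percentage of tested genes that rose (upwards) or fell (downwards) in each of 5 intervals, for the 31 P450 genes (dark bars, with the number of genes) and all 8469 genes (pale bars). The largest P450 bars are the 13 genes higher at 6 h, the 13 lower at 18 h and the 14 higher at 36 h APF.

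Among the genes that rose to 6 h, *Cyp303a1* (FBgn0001992, 2L), needed for the structure of the sensory bristles, changed from next to nothing. It had 0 and 1 counts at L3 and 3337 and 808 counts at 6 h, or 765 and 275 CPM, then 0.522 and 0.56 CPM at 18 h. At 24 and 36 h no library exceeded 0.386 CPM, and at 44 h it stood at 39.4 and 30.6 CPM. The ratio of pooled levels was 6485 from L3 to 6 h (95% exact interval 1163 to 256199) and 242 from 36 to 44 h (43.2 to 9604), with adjusted p-values of 4.49e-07 and 6.11e-05. In between, from 6 to 18 h, it fell by 9.86 on the log2 scale (SE 0.67, adjusted p = 5.64e-07). Every 6 h library was above every 44 h library, and the other 8 were at or near the floor.

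*Cyp301a1* (FBgn0033753, 2R), a mitochondrial P450 known for its part in forming the adult cuticle, was the most abundant P450 of the late wing. Its levels were 5.94 and 3.78 CPM (L3), 202 and 462 (6 h), 9.93 and 11.5 (18 h), 7.99 and 10.2 (24 h), 303 and 265 (36 h), and 701 and 580 (44 h). The 44 h libraries were above all others, and the 6 h and 36 h libraries overlapped. It rose 64.6-fold to 6 h (adjusted p = 7.11e-07), fell by 4.96 on the log2 scale to 18 h (adjusted p = 1.82e-06), and rose 32.2-fold from 24 to 36 h (adjusted p = 3.97e-06). The last step to 44 h, 2.26-fold with adjusted p = 0.0196, was lost without 36 h replicate 1, 36 h replicate 2 or 44 h replicate 1 (adjusted p = 0.063, 0.118 and 0.108), and with library size alone as the scaling.

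*Cyp49a1* (FBgn0033524, 2R), also of the mitochondrial group, was likewise high at 6, 36 and 44 h. It had 0 and 0.315 CPM (L3), 199 and 85.3 (6 h), 0.914 and 1.12 (18 h), 1.93 and 2.55 (24 h), 36.8 and 28.9 (36 h), and 317 and 276 (44 h). The L3 to 6 h ratio was 1754 (95% exact interval 314 to 69333, adjusted p = 4.74e-07), and the gene fell by 7.14 on the log2 scale to 18 h (adjusted p = 8.11e-07). It then rose 15.5-fold from 24 to 36 h (adjusted p = 9.19e-05) and 9.04-fold from 36 to 44 h (adjusted p = 5.98e-05), so that both 44 h libraries were above both 6 h libraries.

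*Cyp4s3* (FBgn0030615, X), *Cyp6u1* (FBgn0033121, 2R) and *Cyp4e1* (FBgn0015034, 2R) completed a set of 7 P450 genes that rose to 6 h, fell by 18 h and rose again by 36 or 44 h. *Cyp4s3* had no count at L3, 23.8 and 12.9 CPM (6 h), 0.392 and 1.12 (18 h), 1.29 and 2.55 (24 h), 99.1 and 87.7 (36 h), and 47.5 and 59.9 (44 h). It was at least 19.4-fold higher at 6 h than at L3, against the floor of 3 counts per library, and 57.6-fold higher at 36 h than at 24 h (adjusted p = 3.02e-06). Its highest libraries were those of 36 h, and it did not overlap between 36 and 44 h, although that difference missed the threshold (adjusted p = 0.0573). *Cyp6u1* was present at every stage, between 6.63 and 14.3 CPM (L3), 18 and 24 h, with 44.0 and 62.5 (6 h), 23.8 and 23.3 (36 h) and 132 and 111 (44 h). *Cyp6u1* rose 3.90-fold to 6 h, 2.90-fold from 24 to 36 h and 5.15-fold from 36 to 44 h (adjusted p = 3.71e-05, 0.000642 and 1.19e-05). *Cyp4e1* reached 7.10 and 27.9 CPM at 6 h, from 0.969 and 0.63 at L3, and 34.4 and 26.7 CPM at 44 h, and its 24 to 36 h rise of 4.92-fold was lost without 24 h replicate 1 (adjusted p = 0.0883).

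The pattern of these 7 genes was picked out after their values were seen, and 7.75% of all tested genes met it. The plot of the 7 genes on a log scale shows the low levels at 18 and 24 h between the high stages. Several other genes were annotated across these loci: *Ak6* on the opposite strand of *Cyp301a1*, *heix* of *Cyp303a1*, *Galphao* of *Cyp49a1*, *Rab3-GEF* of *Cyp4s3* and *Mal-A1* of *Cyp4e1*, and *Ufsp1* on the strand of *Cyp6u1*. The libraries were stranded, but the sources used here do not state the strand setting of the counting, so reads of these pairs may have been shared.

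**Figure D4:**
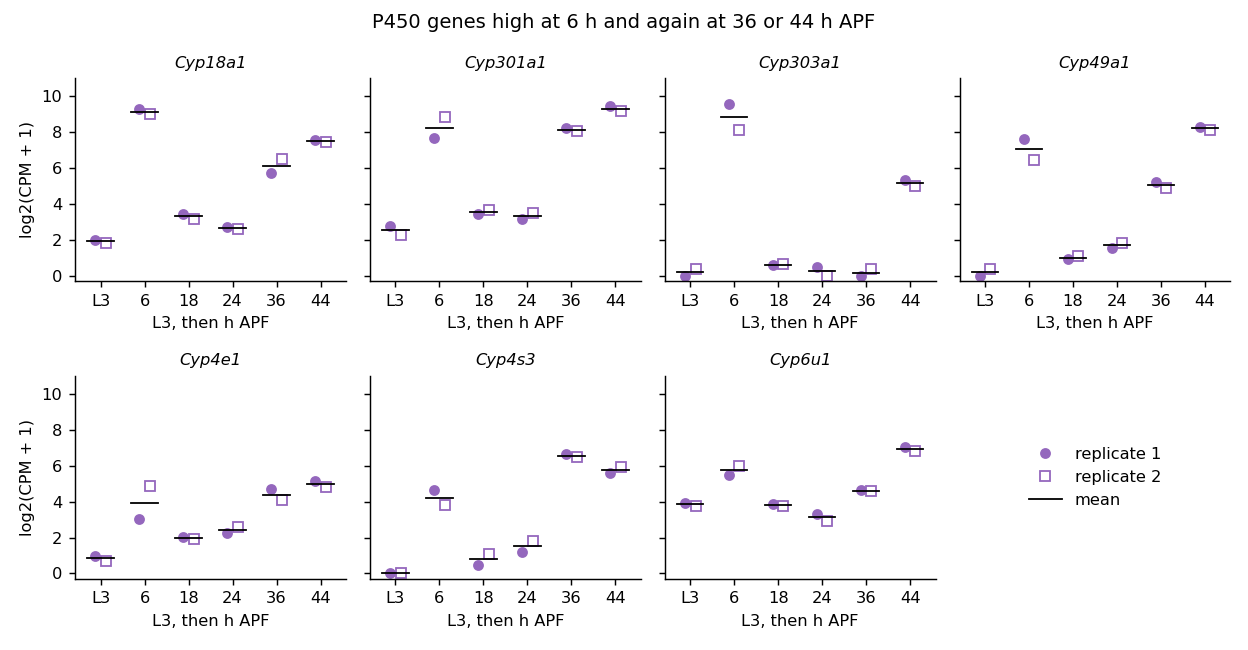
Log2 of CPM plus 1 for 7 P450 genes at L3 and 5 times in h APF, with filled circles for replicate 1, open squares for replicate 2 and a line for the mean of the log values. Each gene is high at 6 h, low at 18 and 24 h and high again at 36 or 44 h APF, from 519 to 621 CPM at 6 h for *Cyp18a1* down to 7.10 to 27.9 CPM for *Cyp4e1*.

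Other P450 genes peaked at 6 h without a second rise that passed. *Cyp6a17*, a gene that sets temperature preference in the adult brain, had 4.12 and 2.83 CPM at L3, 93.5 and 302 at 6 h and 4.05 and 2.24 at 18 h. It rose 53.4-fold (adjusted p = 9.45e-06) and fell by 5.86 on the log2 scale (adjusted p = 7.68e-06), and it was between 5.10 and 20.01 CPM later. *Cyp6a20*, known for its effect on male aggression, reached 9.63 and 56.4 CPM at 6 h from 3 and 0 counts at L3, a ratio of 108 (95% exact interval 36.6 to 530.3, adjusted p = 0.000318). *Cyp6a23* reached 6.19 and 16.0 CPM from 1 count in each L3 library, a ratio of 57.9 (15.5 to 487, adjusted p = 0.000159). These 3 genes lie in an uninterrupted run of 9 P450 genes on 2R, in the order of neighbouring protein-coding genes, with *Cyp317a1*, *Cyp6a19*, *Cyp6a21*, *Cyp6a22*, *Cyp6a8* and *Cyp6a9*, none of which had more than 8 counts in any library. They are related in sequence, and reads that fit several of them could have been lost or misplaced. *Cyp12c1* had no count at L3 and only 7 and 12 counts at 6 h, at least 3.01-fold above the floor. Its call was lost without L3 replicate 1 (adjusted p = 0.0767), and without 6 h replicate 2 the gene fell under the filter. The last of the 13 that rose, *Cyp6a13*, went from 2 counts in each L3 library to 11 and 10 at 6 h, and that call was lost without L3 replicate 1 (adjusted p = 0.126).

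The 2 libraries at 6 h differed in the same genes. *Cyp6a17*, *Cyp6a20*, *Cyp6a23*, *Cyp4e1* and *Cyp301a1* were over 2-fold higher in replicate 2, whereas *Cyp303a1* and *Cyp49a1* were over 2-fold higher in replicate 1. The 6 fat body markers all rose from L3 to 6 h and summed to 148 CPM in replicate 1 and 668 in replicate 2, against 5.98 to 6.06 at L3 and 96.8 to 237 at all later stages, with none at 0. A 5-gene tracheal list, of which *Gasp*, *serp* and *verm* also act in other cuticle-forming epithelia, ran the other way, with 32740.4 CPM in replicate 1 and 8155 in replicate 2. It was 469 to 498 CPM at L3, 183 to 391 from 18 to 36 h and 8024 to 9052 at 44 h, with 3 of the 5 genes called higher to 6 h, lower to 18 h and higher again to 44 h. Of the 6 hemocyte markers, 3 rose and 2 fell from L3 to 6 h and 5 fell from 6 to 18 h, with sums of 35.4 to 39.7, then 55.7 to 57.1, then 12.6 to 15.4 CPM. The part of these cell types in the P450 levels was not tested. With 6 h replicate 2 left out, *Cyp12c1* fell under the filter, so its calls to and from 6 h were lost. The other calls lost at 6 to 18 h were those of *Cyp12a4*, *Cyp4e2*, *Cyp6t1* and *Cyp9c1*. Their log2 fold changes were then 5.03, -0.70, 2.84 and -0.72.

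Between 6 and 18 h, 5 P450 genes rose. Besides *shd* they were *Cyp9b2*, *Cyp6v1*, *Cyp6t1* and *Cyp12a4*. *Cyp9b2* (FBgn0015039, 2R) went from 1 and 3 counts at 6 h to 58 and 21 at 18 h, a ratio of 12.8 (95% exact interval 4.83 to 48.3, adjusted p = 0.000186). *Cyp6v1* rose 2.24-fold (adjusted p = 0.00267) but by 0.91 on the log2 scale without 18 h replicate 2. *Cyp6t1* went from 1 count in each 6 h library to 13 and 7, and *Cyp12a4* from 0 to 5 and 4 counts. Each of these calls was lost without 6 h replicate 1, 6 h replicate 2 or 18 h replicate 2. That of *Cyp6t1* was also lost without 18 h replicate 1. With 1 library left out, log2 fold changes ran from 2.32 to 2.84 for *Cyp6t1* and from 4.69 to 5.33 for *Cyp12a4*. *Cyp4e2* and *Cyp9c1*, expressed at every stage, fell by 1.12 and 1.11 on the log2 scale (adjusted p = 0.0051 and 0.00243). Without 6 h replicate 2 these falls were -0.70 and -0.72, under the 2-fold threshold.

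From 18 to 24 h, the interval with the fewest calls, 5 genes passed (8.81% of all genes), 4 higher (3.65%) and 1 lower (5.16%), with a median of 0.95 against 0.01 over all genes. *Cyp310a1* (FBgn0032693, 2L) was the one that fell. It had 43.7 and 24.6 CPM (L3), 85.0 and 126 (6 h), 69.0 and 81.2 (18 h), 3.74 and 6.63 (24 h), and at most 0.949 in each later library, so that the first 3 stages were high and the last 2 at or near the floor. It rose 3.03-fold from L3 to 6 h (adjusted p = 0.00105), did not pass from 6 to 18 h (adjusted p = 0.187), and fell by 4.02 on the log2 scale from 18 to 24 h (SE 0.37, adjusted p = 8.01e-05). From 24 to 36 h it fell further, with the 24 h level 10.1 times that at 36 h (95% exact interval 3.22 to 50.8, adjusted p = 0.0036). Per kilobase it made up 35.9% of the mRNA of the 82 P450 genes at 18 h, the largest share at that stage. *MESR3* is annotated on the opposite strand.

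*Cyp9b2* rose in both intervals in which *Cyp310a1* fell. Its levels were 7.58 and 5.88 CPM (18 h), 49.3 and 39.8 (24 h), 241 and 168 (36 h), and 4.03 and 4.05 (44 h), after at most 1.09 in each library of L3 and 6 h. It rose 6.53-fold to 24 h (adjusted p = 0.000168) and 4.53-fold to 36 h (adjusted p = 5.51e-05), and then fell by 5.65 on the log2 scale to 44 h (SE 0.32, adjusted p = 3.36e-07), the smallest adjusted p of any P450 gene in that interval. Its 36 h libraries were above all others by over 3-fold. The other genes that rose from 18 to 24 h were *Cyp12b2*, *Cyp4e2* and *Cyp28d1*. *Cyp12b2* went from 1 and 3 counts to 34 and 15 (ratio 14.1, 95% exact interval 5.19 to 54.0, adjusted p = 0.00937), and that call was lost without 18 h replicate 1 (adjusted p = 0.101). *Cyp4e2* rose 2.33-fold (adjusted p = 0.0114), and this was lost without 18 h replicate 1, 18 h replicate 2 or 24 h replicate 1 (adjusted p from 0.0628 to 0.0842). *Cyp28d1* (adjusted p = 0.0465) kept its call in 3 of the 12 fits with 1 library left out, in which adjusted p reached 0.448 without 24 h replicate 1. The number called was 2, 3 and 3 without 18 h replicate 1, 18 h replicate 2 and 24 h replicate 1, where 448 of 8447, 402 of 8434 and 304 of 8461 genes were called in all, against 746 of 8469 with every library.

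From 24 to 36 h, 16 P450 genes passed (25.4% of all genes), 14 higher (15.3%) and 2 lower (10.1%), with a median of 1.31 against -0.04 over all genes. Outside 36 h, *Cyp12a4*, *Cyp6a2* and *Cyp6d5* reached at most 2.55, 1.62 and 1.02 CPM. They entered the test only through that stage, so their rises to it carry no weight in these shares. The 2 that fell were *shd* and *Cyp310a1*. Besides *Cyp18a1*, *Cyp301a1*, *Cyp49a1*, *Cyp4s3*, *Cyp6u1*, *Cyp4e1* and *Cyp9b2*, the risers were *Cyp311a1*, *Cyp12a4*, *Cyp28d2*, *Cyp6a13*, *Cyp6a2*, *Cyp6d5* and *Cyp4g15*. *Cyp311a1* (FBgn0030367, X), which acts in membrane lipid composition in the midgut, had at most 3 counts in any library up to 24 h, then 8.53 and 16.4 CPM at 36 h and 5.69 and 6.07 at 44 h. Its ratio from 24 to 36 h was 30.6 (95% exact interval 11.5 to 115, adjusted p = 0.000472), and all 4 late libraries were above all 8 earlier ones. *Cyp12a4*, a mitochondrial P450 linked to resistance to the insecticide lufenuron, rose 7.75-fold to 14.4 and 10.5 CPM at 36 h (adjusted p = 0.00338) and fell by 2.74 on the log2 scale to 44 h (adjusted p = 0.0045). Its rise to 36 h was lost without 24 h replicate 1 (adjusted p = 0.0581).

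Several of the 36 h calls rested on single libraries. *Cyp6d5* had 3 and 139 counts at 36 h and at most 4 in each other library, so its peak and its 2 calls, up at 36 h and down at 44 h, came from 36 h replicate 2, without which it fell under the filter. The fall to 44 h was also lost without either 44 h library (adjusted p = 0.113 and 0.117). *Cyp28d2* (16.2 and 8.05 CPM at 36 h), *Cyp6a13* (5.88 and 11.4), *Cyp6a2*, a gene of insecticide metabolism (4.41 and 4.996), and *Cyp4g15* (1.18 and 2.22) were low throughout. *Cyp28d2* lost its call without 24 h replicate 1, 24 h replicate 2 or 36 h replicate 1 (adjusted p from 0.0706 to 0.112), and *Cyp6a13* without 24 h replicate 1 or 36 h replicate 2 (0.13 and 0.108). *Cyp4g15* and *Cyp6a2* kept their calls in 5 of the 12 fits with 1 library left out, and without 24 h replicate 1 their adjusted p-values were 0.18 and 0.229. Of the 16 calls, 8 were kept in every such fit, namely those of *Cyp4s3*, *Cyp301a1*, *Cyp18a1*, *Cyp9b2*, *Cyp49a1*, *Cyp311a1*, *Cyp6u1* and *Cyp310a1*. Without 24 h replicate 1, 8 P450 genes were called, with 1923 of 8461 genes called in all, against 2151 of 8469 with every library. The 6 muscle markers summed to 35.0 to 41.3 CPM at 24 h, 142 to 242 at 36 h and 495 to 2088 at 44 h, with 4 called higher in each of these intervals. The 5 neuron markers summed to 129 to 130.2, 187 to 213 and 229 to 265 CPM, with 2 and 0 called higher. *lambdaTry*, the 1 gut marker tested, was called higher from 18 to 24 and from 24 to 36 h. The part of these cell types in the later P450 changes was not tested. In the neighbouring pair *Cyp28d1* and *Cyp28d2* on 2L both peaked at 36 h, with 6.47 and 7.49 CPM for the first.

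From 36 to 44 h, 13 genes passed (19.9% of all genes), 7 higher (10.5%) and 6 lower (9.38%), with a median of -0.73 against 0.08. With library size alone as the scaling the split was 4 higher and 12 lower, beside 611 higher and 1334 lower over all 8469 genes. The median of all genes was then -0.26, and the calls of *Cyp18a1*, *Cyp301a1* and *Cyp9c1* were lost. The risers were *Cyp18a1*, *Cyp301a1*, *Cyp303a1*, *Cyp49a1* and *Cyp6u1*, described above, with *Cyp9c1* and *Cyp4g1*. *Cyp9c1* had 30.9 and 38.0 CPM at 36 h and 83.0 and 74.7 at 44 h (2.29-fold, adjusted p = 0.00244), with both 44 h libraries above all others. The genes that fell were *Cyp9b2*, *Cyp6v1*, *Cyp12b2*, *Cyp12a4*, *Cyp6d5* and *Cyp6d4*. *Cyp12b2* fell by 3.27 on the log2 scale, from 10.6 and 8.88 CPM to 0.949 and 1.01 (adjusted p = 0.0038). *Cyp6d4*, at 15.3 and 13.0 CPM at 36 h and 5.93 and 1.21 at 44 h, passed narrowly (adjusted p = 0.0485). It kept its call in 3 of the 12 fits with 1 library left out, where its log2 fold change ran from -3.52 to -1.25.

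*Cyp4g1* (FBgn0010019, X) makes the hydrocarbons that waterproof the cuticle and is the hallmark enzyme of oenocytes. It had 4 and 88 counts at 44 h and 5 and 14 at 24 h, with at most 12 in each other library. Its 44 h call (ratio 35.2 over 36 h, 95% exact interval 9.46 to 295, adjusted p = 0.0379) rested on 44 h replicate 2, without which adjusted p was 0.602 and the peak moved to 24 h. The 4-gene oenocyte list, which includes *Cyp4g1*, summed to 2.85 and 25.9 CPM in the 44 h replicates, 2.32 and 9.69 at 24 h and at most 3.27 elsewhere. The 6 muscle markers also differed between the 44 h replicates, at 495 and 2088 CPM. The part of other cell types in the *Cyp4g1* level was not tested.

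*Cyp6v1* (FBgn0031126, X) was the only P450 gene highest at L3. It had 87.2 and 62.7 CPM (L3), 18.3 and 22.1 (6 h), 37.9 and 52.9 (18 h), 47.9 and 39.3 (24 h), 23.5 and 29.7 (36 h), and 8.07 and 7.49 (44 h). It fell by 1.90 on the log2 scale to 6 h (SE 0.25, adjusted p = 8.61e-05) and by 1.77 from 36 to 44 h (SE 0.27, adjusted p = 0.000516). Its lowest libraries were those of 44 h, and its fall to 6 h came in the interval in which 13 other P450 genes rose. An antisense RNA, *asRNA:CR45466*, is annotated on the opposite strand.

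Summed over the genes found by name, P450 mRNA rose and fell with the same timing. The 82 genes together took 249 and 195 CPM (L3), 2164 and 2123 (6 h), 241 and 253 (18 h), 275 and 285 (24 h), 1042 and 980.1 (36 h), and 1668 and 1462 (44 h). The 6 h libraries were the highest and L3, 18 and 24 h the lowest, and the replicates at 6 h were closer in this sum than in most of its leading genes. Per kilobase of exon, the leading genes at 6 h were *Cyp18a1* with 20.4% of the P450 total, *Cyp303a1* with 20.3%, *Cyp301a1* with 18.7% and *Cyp6a17* with 12.5%. *Cyp303a1* led in replicate 1 (274 CPM per kilobase) and *Cyp301a1* in replicate 2 (238), so the order of these genes is not fixed by the data.

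The leading genes differed between stages in part. At L3 they were *Cyp6v1* (23.4% of the total per kilobase), *Cyp310a1* (19.5%) and *Cyp9c1* (18.5%), and at 24 h *Cyp9b2* (18.9%) and *Cyp4e2* (14.3%). At 36 h *Cyp301a1* (28.1%) and *Cyp9b2* (23.6%) led, and at 44 h *Cyp301a1* (45.8%), *Cyp49a1* (14.5%), *Cyp6u1* (8.32%) and *Cyp18a1* (8.14%). The plot of stacked levels by library shows these shifts.

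**Figure D5:**
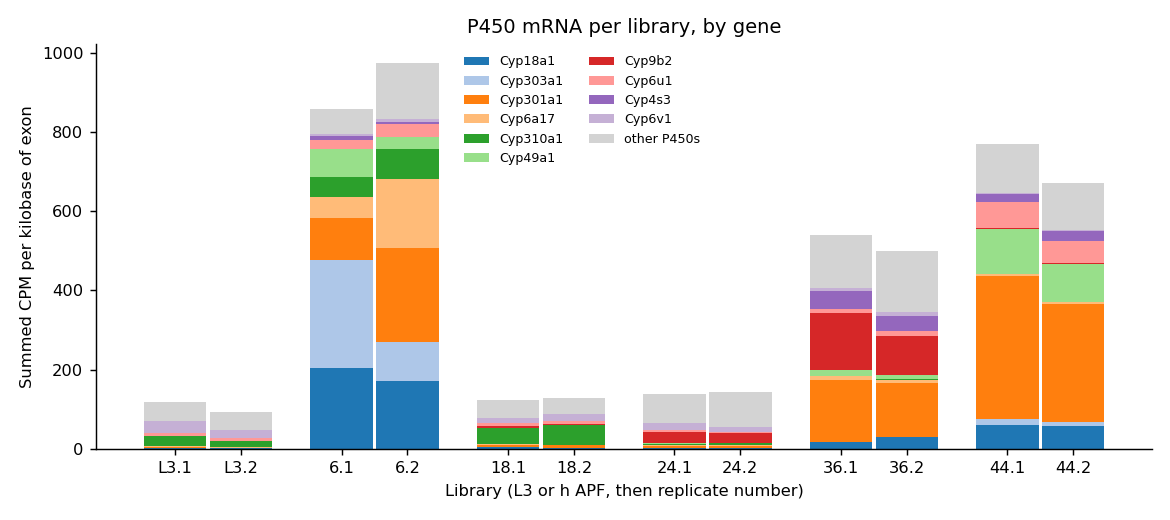
Summed CPM per kilobase of exon of the 82 P450 genes found by name, in each of the 12 libraries (L3 or h APF, then replicate number). Bars are stacked by gene, with the rest of the 82 in grey. The 6 h libraries reach 858 and 974 CPM per kilobase, those at 36 and 44 h between 500.4 and 770.2, and those at L3, 18 and 24 h between 93.5 and 143.

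By clan, the 82 genes found by name were 10 mitochondrial, 4 CYP2, 36 CYP3 and 32 CYP4 genes. Of these, 6, 2, 17 and 8 were among the 33. P450 genes under other names, such as *dib*, *phm* and *sad*, were not in these counts. The 2 CYP2 genes among the 33, *Cyp18a1* and *Cyp303a1*, both peaked at 6 h. The 6 mitochondrial genes were spread over 6 h (*Cyp12c1*), 24 h (*shd*), 36 h (*Cyp12a4*, *Cyp12b2*) and 44 h (*Cyp301a1*, *Cyp49a1*). The 17 of the CYP3 clan and 8 of the CYP4 clan included 9 and 3 that peaked at 36 h, and 2 and 4 that peaked at 44 h. The 6 genes without a count were *Cyp12d1-d*, *Cyp12d1-p*, *Cyp313a1*, *Cyp313a2*, *Cyp313a4* and *Cyp6a18*. The first 2 are near-identical copies, whose reads a count of unique alignments would drop. *Cyp6t3*, which acts in ecdysone synthesis in the larval prothoracic gland, had a single count in 1 library.

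Of the 6 genes that pass electrons to P450s, 5 were tested, and 1 of them passed in each interval except that from 18 to 24 h, where 0 did. *Cpr*, the reductase of the endoplasmic reticulum, passed in no interval and its 6 h replicates were at 152 and 35.7 CPM. *CG1319*, annotated as the mitochondrial ferredoxin *Fdx2*, had 17.1 and 18.3 CPM (L3), 50.2 and 62.9 (6 h), 17.4 and 21.6 (18 h), 18.2 and 22.4 (24 h), 33.0 and 26.9 (36 h), and 70.2 and 58.5 (44 h). It rose to 6 h (log2 fold change 1.68, adjusted p = 8.41e-05), fell by 1.55 to 18 h (adjusted p = 0.000142) and rose to 44 h (1.10, adjusted p = 0.00226). The other ferredoxin, *Fdxh*, passed in no interval, and the ferredoxin reductase *dare* rose from 24 to 36 h (1.07, adjusted p = 0.00532). *Cyt-b5* went from 108 and 109 CPM at L3 to 427 and 341 at 36 h, in steps that each stayed under 2-fold or missed the threshold.

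Of the 9 genes of heme synthesis and breakdown, all tested, 3, 2, 0, 2 and 2 rose and 4, 2, 0, 2 and 0 fell in the successive intervals. *Alas*, the first enzyme of heme synthesis, rose to 6 h (30.2 and 23.6 to 81.8 and 58.8 CPM, adjusted p = 0.00414) and fell by 2.22 on the log2 scale to 18 h (adjusted p = 0.000236). Others moved the opposite way: *Coprox* fell by 2.07 on the log2 scale from L3 to 6 h (adjusted p = 3.46e-05) and *CG1885*, the uroporphyrinogen III synthase, by 2.09 (adjusted p = 0.000941). Of 4 regulators of the response to foreign compounds, *cnc* fell from 6 to 18 h (log2 fold change -1.05, adjusted p = 0.00604) and *Keap1* rose from 36 to 44 h (1.31, adjusted p = 0.000557). *maf-S* and *Hr96* passed in no interval.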

How the data were processed

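RNA was extracted from dissected wings, made into stranded mRNA libraries and sequenced. Per the submitters' processing notes, reads were aligned to dm3 with TopHat2 2.1.0 and handled with SAMtools 1.2, and the authors deposited whole-number counts per gene made with HTSeq 0.6.1, whose strand setting is not given in the sources used here. Of the records in each count table, 44.0 to 75.2% were not assigned to a gene, mostly because reads matched several places (38.0 to 69.5%), and these lines were left out. The authors also deposited a table of RPKM values. The gene lengths it implies bear no relation to annotated exon lengths, so levels between genes were compared as CPM per kilobase of merged exons in the BDGP6 annotation, which also gave identifiers, chromosome arms, overlaps and neighbours. All 82 P450 genes matched it. Of the RPKM columns, 2 match no sample and were not used.

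Counts of all 12 libraries were fitted in one model by stage with edgeR 4.0.16 (R 4.3.3), with TMM scaling. Genes with a log2 CPM over 2 (prior count 2) in at least 1 library were tested in 5 consecutive intervals by the quasi-likelihood F test with Benjamini-Hochberg adjustment over all 8469 genes. A gene passed with adjusted p under 0.05 and at least a 2-fold change. Genes with at most 3 counts in each library of one stage, but not 0 in both, are given as ratios of pooled counts with exact 95% intervals. Genes at 0 in both libraries are given as bounds against a floor of 3 counts in the shallower library. These cover counting error only. Alternatives were DESeq2 1.42.0 (size factors and Wald test), library size alone, other filters, a replicate block, adjusted p alone, a fit of each interval's own libraries, and each library left out. Methods were tested on simulated data. *shd* and *Cyp18a1* were named first, then in each interval the 8 called genes with the smallest adjusted p in each direction, the 4 highest per kilobase for each stage of peak, genes with known roles in cuticle or development, groups of 5 or fewer, and genes of the pathway lists. The members, lists and rules were chosen with earlier results of these data known.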

Additional observations from a re-analysis of the deposited data

How the results depend on the processing

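No called P450 change reversed its sign under DESeq2's size factors or with library size alone. Library size alone shifted the median log2 fold change of all genes to -0.53, 0.50, -0.04, -0.42 and -0.26 in the successive intervals, and the share of calls that were higher over all genes was then 29.9%, 69.4%, 36.5%, 35.1% and 31.4%, against 55.1%, 44.5%, 41.4%, 60.3% and 52.8% with TMM. The numbers of P450 genes called ranged, with 1 library left out, over 12 to 15 (L3 to 6 h), 13 to 18 (6 to 18 h), 2 to 7 (18 to 24 h), 8 to 17 (24 to 36 h) and 9 to 15 (36 to 44 h), and those varying at any stage over 28 to 30. Without a filter on low counts, 8 genes were called from 18 to 24 h and 33 members were tested. Under the other settings the ranges were 14 to 15, 16 to 19, 4 to 8, 14 to 19 and 13 to 17. Of the calls, 12 of 14, 12 of 18, 2 of 5, 8 of 16 and 8 of 13 were kept with every single library left out. Counting *Cyp1* with the members, an alternative added after seeing the data, gave 14 calls in place of 13 from 36 to 44 h and changed no other count. Replicate differences were at most weakly shared between stages: those of 2 stages correlated between -0.16 and 0.20 over 15 pairs of stages, above 0.1 in 2. These correlations cannot settle whether libraries with the same replicate number were prepared together. With a replicate block 14, 18, 5, 16 and 14 P450 genes were called, and 2798, 2721, 765, 2180 and 1750 of all 8469 genes. At any stage, 29 P450 genes then varied. Depth limits the low genes: 6 of the 33 had over 10 counts in only 1 library of any stage.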

Other observations

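*Cyp1*, the cyclophilin that shares the P450 name pattern, had 1925 and 1646 CPM (L3), 705 and 1202 (6 h), 1362 and 1716 (18 h), 1500.4 and 1709.6 (24 h), 1141 and 1045 (36 h), and 387 and 493 (44 h). It passed only from 36 to 44 h (log2 fold change -1.31, adjusted p = 0.00461).

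The gene lengths that follow from the deposited RPKM values and the counts were the same in every library but did not track exon length: Spearman's rho was 0.01 over 12596 genes, as a description, and 910 of them lay within 10% of the annotated exon length. Over the 33 P450 genes rho was -0.02, the median ratio of implied to annotated length was 0.342, and 1 gene lay within 10%. A length that is constant over libraries cancels in the ratio of a gene between libraries, but not between genes.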
